A study of Arabidopsis thaliana with 6 samples.

Results

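GH3.17, WES1, GH3.1, GH3.3, IAA18, IAA29 and IAA30 are 7 Arabidopsis thaliana genes of the auxin response. They were measured here in seedlings labelled as a transgenic line overexpressing ASL9 and in seedlings labelled as wild type. WES1 is also called GH3.5. The genes were chosen by name, with earlier results of these data known, from the GH3 and Aux/IAA genes that the platform annotation pairs with a probe set. Those genes also include GH3.9, IAA20, IAA31, IAA33 and IAA34, described further on. Each of the 7 was read by 1 probe set, so that they make up 7 of the 22810 probe sets in the table and 7 of the 13286 genes of the RefSeq table read by a probe set of 1 gene. They are AT1G28130 (GH3.17), AT4G27260 (WES1), AT2G14960 (GH3.1), AT2G23170 (GH3.3), AT1G51950 (IAA18), AT4G32280 (IAA29) and AT3G62100 (IAA30).

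Auxin, chiefly indole-3-acetic acid, controls growth and patterning of roots, stems and leaves. Aux/IAA proteins repress auxin-responsive genes by binding the ARF transcription factors, and auxin promotes their breakdown through the TIR1/AFB receptors, which frees the ARFs. Many GH3 enzymes join indole-3-acetic acid to amino acids and thereby take active hormone out of use, and several GH3 and Aux/IAA genes are themselves switched on by auxin, which closes a feedback loop.

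By their labels, which could not be checked, the ASL9-ox arrays came from the overexpressing line and the wildtype arrays from the ecotype Col-0. The labels name neither the promoter of the transgene, nor the ecotype of the line, nor whether it descends from a single transformant. ASL9, also named LBD3, is a transcription factor of the LBD family, which is found only in plants. Both groups were untreated seedlings 2 weeks old raised upright on agar with Murashige and Skoog salts, with 3 Affymetrix ATH1 arrays each, and the tissue is labelled as aerial parts although the extraction text mentions only seedlings.

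The values are MAS5 signals, a linear brightness per probe set that the authors had scaled so that the mean of each array, without its lowest and highest 2%, was 100.01. No probe set was paired with ASL9, so the labels could not be checked through the overexpressed gene and every direction below rests on them. The largest difference of any probe set belonged to 262704_at, with mean signals of 10.9 in ASL9-ox and 5101 in wildtype. The annotation used here pairs it with no gene, so whether it reads ASL9, and with that whether the labels could be exchanged, was not tested. With exchanged labels every rise and fall below would be reversed. Signals correlated at 0.9794 to 0.9926 between arrays of a group and at 0.9275 to 0.9531 between groups (Pearson, log2 scale; the points are probe sets and so not independent). The summed signal of 7 of 7 leaf markers was 21480 to 22580 on ASL9-ox arrays and 14000 to 15860 on wildtype arrays. The 3 measured root markers of 7 listed summed to 414 to 470 on ASL9-ox arrays and to 2851 to 3186 on wildtype arrays, nearly all of it from PYK10, a beta-glucosidase gene, while the root hair expansin genes EXPA7 and EXPA18 read at most 13.3 on every array. The 3 measured seed maturation markers of 11 listed summed to 12.5 to 14.1 on ASL9-ox arrays and to 8.65 and 11.4 on wildtype replicates 1 and 3, but to 1619 on wildtype replicate 2. Results of the 7 genes are therefore also given without that array.

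Of the 7 genes, 3 fell, 2 rose and 2 did not pass the test. A gene "rose" or "fell" where it was higher or lower in ASL9-ox than in wildtype with an adjusted p below 0.05 in limma's moderated test on log2(signal + 16), with Benjamini-Hochberg adjustment over the 17059 probe sets tested. Since the labels leave unstated whether samples within a group were cultured separately, the spread behind each p-value may be merely technical. The genes have to be read against a comparison in which 41.6% of all tested probe sets passed, 24.6% as higher and 17% as lower. The median log2 fold change of the 7 genes was 0.17, against 0.08 over all probe sets tested. Because the 7 genes were chosen with earlier results of these data known, such counts and medians only describe them. With arrays centred on the hybridization controls, bacterial and phage transcripts added to every sample, 45.6% of all calls were higher in place of 59.2%, and each of the 7 genes kept its direction and its side of the threshold.

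**Figure D1:**
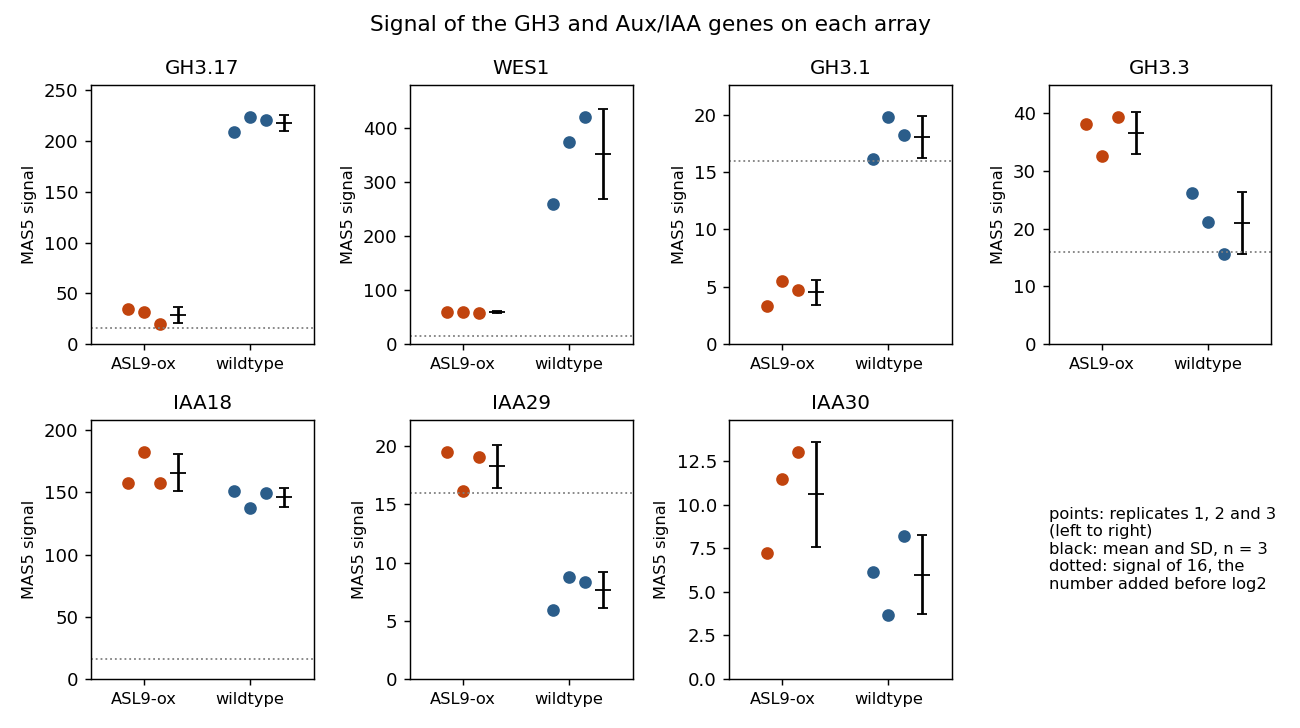
MAS5 signal (linear axis from 0, 1 panel per gene) on the 3 ASL9-ox arrays (red, left) and the 3 wildtype arrays (blue, right), with the mean and SD in black (n = 3). For GH3.17, WES1 and GH3.1 every ASL9-ox point lies below every wildtype point, for GH3.3, IAA18 and IAA29 every one lies above, and for IAA30 the groups overlap.

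All 4 GH3 enzyme genes passed the test, beside 41.6% of all tested probe sets. GH3.17 and WES1 changed most on the log2(signal + 16) scale. GH3.17 joins indole-3-acetic acid to glutamate, a conjugate that is thought to be led on to irreversible breakdown. Its signal was 34.3, 31.5 and 19.5 on the ASL9-ox arrays (replicates 1 to 3), against 209, 224 and 220 on the wildtype arrays. The groups were separated by 175 signal units, and the wildtype arrays lay close together while ASL9-ox replicate 3 was the lowest of its group. Means were 28.4 ± 7.86 in ASL9-ox and 218 ± 7.67 in wildtype (SD, n = 3 each), a 7.66-fold lower signal in ASL9-ox. The log2 fold change was -2.41 ± 0.13 (SE), with a 95% interval of -2.70 to -2.12 and an adjusted p of 1.32e-06 in limma. Only 152 of the 17059 probe sets tested, 0.891%, had a lower log2 fold change.

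WES1 encodes an enzyme that conjugates indole-3-acetic acid and also acts on salicylic acid, a defence hormone, and its overexpression is known to dwarf the plant. It read 60.1, 60.3 and 57.8 on the ASL9-ox arrays, against 261, 375 and 421 on the wildtype arrays. Here the spread lay the other way round from GH3.17: the coefficient of variation was 2.38% in ASL9-ox and 23.5% in wildtype, where replicate 1 was the lowest. Means were 59.4 ± 1.42 in ASL9-ox and 352 ± 82.8 in wildtype (SD, n = 3 each), a 5.93-fold lower signal in ASL9-ox. The log2 fold change of WES1 was -2.26 ± 0.15 (SE), with a 95% interval of -2.60 to -1.93 and an adjusted p of 4.73e-06 in limma, and 176 probe sets had a lower one. Both GH3.17 and WES1 thus lie among the 1.34% of tested probe sets that passed the threshold and were at least 4-fold lower on the log2(signal + 16) scale. Without wildtype replicate 2 their log2 fold changes were -2.39 and -2.21.

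GH3.1, a less studied member of the same auxin-conjugating group, fell too, at signals near or below 16 throughout. It read 3.36, 5.47 and 4.69 on the ASL9-ox arrays, against 16.2, 19.8 and 18.2 on the wildtype arrays, and the groups did not overlap. The log2 fold change was -0.73 ± 0.11 (SE), with a 95% interval of -0.99 to -0.48 and an adjusted p of 0.000784 in limma. Its size hangs on the number added before the logarithm, since the ratio of mean signals was 4.01-fold lower in ASL9-ox, and the log2 fold change was -1.81 with 1 added and -0.26 with 64 added. Without detection calls, signals this low could not be set against background.

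GH3.3, an auxin-conjugating enzyme gene that auxin induces rapidly, was the exception among the 4 GH3 genes. Its signal was 38.0, 32.5 and 39.3 on the ASL9-ox arrays, against 26.2, 21.1 and 15.5 on the wildtype arrays. All ASL9-ox arrays lay above all wildtype arrays, with a gap of 6.32 signal units between the groups, against SDs of 3.64 in ASL9-ox and 5.32 in wildtype. GH3.3 rose by a log2 fold change of 0.52 ± 0.12 (SE), with a 95% interval of 0.24 to 0.80 and an adjusted p of 0.00904 in limma. On the wildtype arrays, replicate 1 held the highest GH3.3 and the lowest WES1, and replicate 3 the lowest GH3.3 and the highest WES1; with 3 arrays this is a description only.

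The 4 GH3 genes therefore split, with 3 lower and 1 higher, beside 17% lower and 24.6% higher among all probe sets tested. Their log2 fold changes had a median of -1.50, against 0.08 over all probe sets tested. GH3.9, a GH3 gene outside these 4 that is described further on, rose with a log2 fold change of 0.54. The counts and the median therefore hold for the chosen 4 only. Within each array, where the common scaling cancels apart from the added 16, the split can be given as a ratio. The log2 ratio of GH3.3 to GH3.17 was 0.03 to 0.64 on the ASL9-ox arrays, against -2.90 to -2.42 on the wildtype arrays. For GH3.3 to WES1 it was -0.66 to -0.41 on ASL9-ox arrays, against -3.79 to -2.71 on wildtype arrays, and for GH3.3 to GH3.1 it was 1.18 to 1.48, against -0.12 to 0.39. These ratios restate the fold changes above and add no evidence for the split: the 2 genes of each pair already lay apart in opposite directions on every array, which fixes that the groups do not overlap, and the differences of 2.93, 2.78 and 1.25 log2 units are the genes' log2 fold changes subtracted. For the same reason the two-sided exact permutation test had to give p = 0.1, the smallest value that 3 against 3 arrays allow, and it is no support. Only unequal change between the genes is measured by such a ratio, not the level of one gene against another. The root marker PYK10 was lower on the same ASL9-ox arrays as GH3.17, WES1 and GH3.1, and the leaf markers were higher there. The other measured root markers, EXPA7 and EXPA18, were dim and their groups overlapped. The part of differing tissue content in the GH3 values was not tested. In RNA of bulk tissue, whichever parts of the seedlings it held, fewer cells of a type and less RNA per cell cannot be told apart.

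Of the 3 Aux/IAA repressor genes, 1 rose and 2 did not pass, beside 24.6% of all tested probe sets that passed as higher. IAA29, whose transcript is known to respond to light, shade and warmth, read 19.5, 16.2 and 19.1 on the ASL9-ox arrays, against 5.88, 8.74 and 8.29 on the wildtype arrays. The groups did not overlap. Means were 18.3 ± 1.82 in ASL9-ox and 7.64 ± 1.54 in wildtype (SD, n = 3 each), a 2.39-fold higher signal in ASL9-ox. As for GH3.1, signals this low could not be set against background without detection calls, which leaves the size of this ratio uncertain. On the log2(signal + 16) scale the fold change was 0.54 ± 0.11 (SE), with a 95% interval of 0.28 to 0.79 and an adjusted p of 0.00445 in limma, and 10.2% of all tested probe sets had a higher one. With 1 added before the logarithm it was 1.17, and with 64 added 0.20. Without wildtype replicate 2 it was 0.57, with an adjusted p of 0.00797.

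IAA18, known from dominant mutants with altered embryo and lateral root patterning, did not pass. It read 157, 183 and 158 on the ASL9-ox arrays, against 151, 137 and 150 on the wildtype arrays. The groups did not overlap, yet ASL9-ox replicate 1 lay only 6.26 signal units above the highest wildtype array. The log2 fold change was 0.17 ± 0.09 (SE), with a 95% interval of -0.03 to 0.36 and an adjusted p of 0.152 in limma. A rise above 0.36 log2 units thus lies outside the interval, while no change lies inside it.

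IAA30 encodes an unusual Aux/IAA protein that lacks the degron through which auxin triggers breakdown of its relatives. Its signal was 7.26, 11.5 and 13.1 on the ASL9-ox arrays, against 6.12, 3.65 and 8.20 on the wildtype arrays. ASL9-ox replicate 1 lay below wildtype replicate 3, so the groups overlapped. The log2 fold change of IAA30 was 0.27 ± 0.14 (SE), with a 95% interval of -0.04 to 0.59 and an adjusted p of 0.144 in limma, and at these signals an absent transcript and a weak one could not be distinguished. Over all 7 genes, groups did not overlap in 6, against 54% of all probe sets tested. This is a description only, as the genes were chosen with earlier results known.

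**Figure D2:**
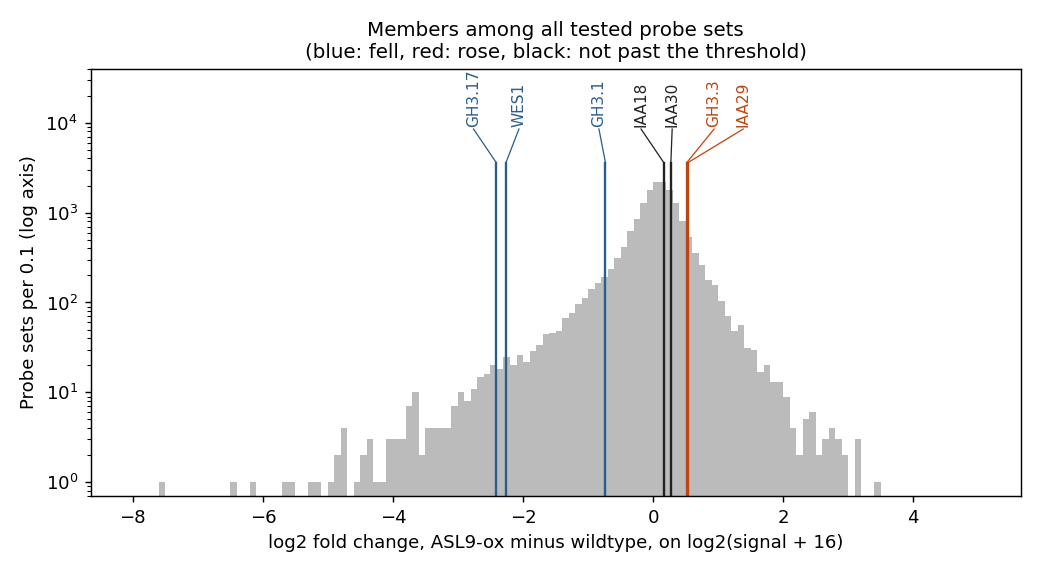
Histogram of the log2 fold change (ASL9-ox minus wildtype, log2(signal + 16) scale, horizontal axis) of all 17059 tested probe sets, with the number of probe sets per bin on a log axis and a vertical line for each of the 7 genes. GH3.17 (-2.41) and WES1 (-2.26) stand in the sparse lower tail, GH3.1 (-0.73) in the flank, and the other 4 between 0.17 and 0.54, near the bulk.

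The rest of the pathway was sampled thinly. Of 240 further auxin genes in 9 lists, 20 had a probe set that the annotation pairs with that gene alone. None of these was an ARF, a TIR1/AFB receptor or a SAUR gene (0 in each of these lists). The annotation pairs 8794 of the 22810 probe sets with no gene. The array may therefore hold signals of further listed genes, which could not be named here. A filter on dim probe sets left out 10 of the 20, whose signals lay between 0.218 and 10.9 on every array. They included all 4 other Aux/IAA genes that the annotation pairs with a probe set of 1 gene, IAA20, IAA31, IAA33 and IAA34. Of the Aux/IAA genes named in this way, none beyond the 3 above could be tested. Of the 10 tested, 6 rose, 1 fell and 3 did not pass. Among all probe sets tested 41.6% were called, 24.6% as higher and 17% as lower. With arrays centred on the hybridization controls, the rises of YUC2 and NGA1 were lost. The median log2 fold change of the 10 genes was 0.38, against 0.08 over all probe sets tested. The lists too were chosen with earlier results of these data known, so these values are a description only.

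GH3.9, a further enzyme gene of the family with a known part in primary root growth, read 24.1, 29.4 and 25.8 on the ASL9-ox arrays, against 15.3, 8.55 and 16.4 on the wildtype arrays. It rose, with a log2 fold change of 0.54 ± 0.13 (SE) and an adjusted p of 0.0096 in limma, and so stood with GH3.3 and not with the 3 GH3 genes that fell. UGT74D1, which glucosylates auxin, was the only tested gene of the list of auxin inactivation and amide hydrolysis. It read 119, 136 and 111 on the ASL9-ox arrays, against 161, 171 and 182 on the wildtype arrays, and fell by 0.45 ± 0.09 on the log2 scale (SE, adjusted p = 0.004 in limma). YUC2, which encodes a flavin monooxygenase of auxin synthesis, read 32.1, 32.9 and 34.5 on the ASL9-ox arrays, against 20.4, 24.7 and 20.9 on the wildtype arrays. Its rise of 0.37 log2 units (adjusted p = 0.0114 in limma) was lost when arrays were centred on the hybridization controls (adjusted p = 0.116).

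Among auxin-induced genes and regulators tied to auxin, 4 of 6 tested rose, beside 24.6% of all tested probe sets; for NGA1, 1 of the 4, the call was lost under several alternatives. HAT2, an early auxin-induced homeodomain-leucine zipper gene, showed the largest rise of the 10 genes, reading 84.3, 91.0 and 77.0 on the ASL9-ox arrays, against 22.6, 25.5 and 23.4 on the wildtype arrays. Its log2 fold change was 1.33 ± 0.09 (SE, adjusted p = 5.65e-06 in limma). ARL, a relative of the auxin-induced organ size gene ARGOS, averaged 152 ± 7.98 in ASL9-ox and 76.4 ± 6.79 in wildtype (SD, n = 3 each), a log2 fold change of 0.87. LHW, a bHLH gene of vascular development, rose by 0.56, reading 117, 119 and 113 on the ASL9-ox arrays, against 83.7, 69.0 and 68.8 on the wildtype arrays. NGA1, a B3-domain gene of leaf margins and gynoecium, rose by 0.39 (adjusted p = 0.0284 in limma), a call lost without any 1 of wildtype replicate 2, wildtype replicate 3, ASL9-ox replicate 2 and ASL9-ox replicate 3 (0.0684 to 0.1) and with centring on the hybridization controls (0.093). The AP2-type gene PUCHI, with 0.11, and SHI, a zinc finger gene that activates auxin synthesis genes, with -0.26, did not pass, although SHI passed as lower without wildtype replicate 3 (adjusted p = 0.0445). WAG2, a kinase gene of the group that directs PIN auxin carriers, had a log2 fold change of 0.33 (adjusted p = 0.129) and did not pass.

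**Figure D3:**
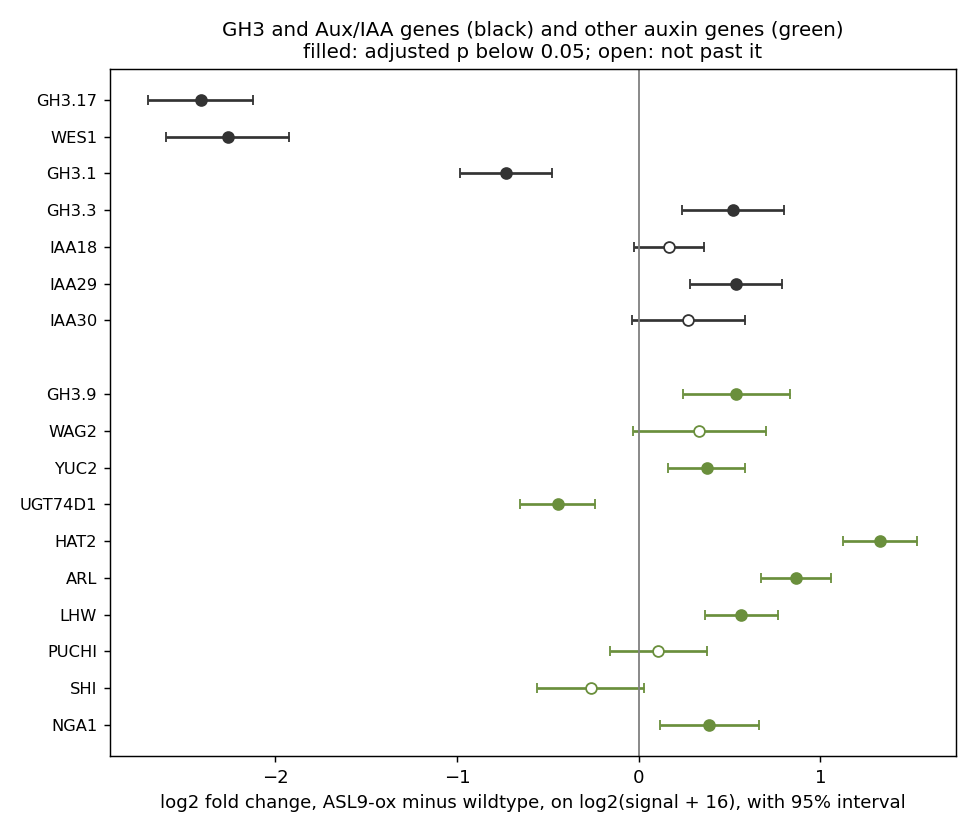
Log2 fold change (ASL9-ox minus wildtype, log2(signal + 16) scale, horizontal axis) with its 95% interval for the 7 genes (black) and the 10 other tested auxin genes (green); filled points passed the threshold. GH3.17, WES1, GH3.1 and UGT74D1 are the filled points below 0, and HAT2 at 1.33 is the highest.

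The genes most alike in pattern were sought among all tested probe sets paired with 1 gene, by the root mean square difference of log2 profiles over the 6 arrays, each profile centred on its own mean. With arrays in 2 groups this measure is governed mostly by the size of the group difference. Nearest to GH3.17 were AT5G16980 (0.0587 log2 units) and AT3G22750 (0.0983). Nearest to WES1 were BGLU45, a beta-glucosidase gene (0.0827), and CCS, the copper chaperone of superoxide dismutase (0.111). BGLU45 read 9.06, 9.20 and 5.32 on the ASL9-ox arrays, against 79.4, 116 and 123 on the wildtype arrays. Wildtype replicate 1 was the lowest of its group there too, but BGLU45 was picked for likeness to WES1 on these same 6 arrays. For GH3.1 the nearest were AT1G21440 (0.0325) and AT3G54200 (0.0354), and for GH3.3 AT2G15300 (0.0466) and AT1G16690 (0.0511). IAA18 lay nearest to AT3G55140 (0.0235) and AT1G13030 (0.0249), IAA29 to AT5G47070 (0.0308) and AT5G55340 (0.0331), and IAA30 to AT1G16680 (0.0343) and AT5G04670 (0.0369). None of these nearest genes belongs to the auxin lists (0 of 14). Only 10 tested genes of those lists were among the 9448 probe sets compared, so this 0 says nothing about the 7 genes.

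The calls of the 7 genes held under each alternative that tested them. GH3.17 stayed between -2.93 and -1.61 on the log2 scale, WES1 between -2.52 and -1.73, and GH3.1 between -1.81 and -0.26. IAA30 stayed between 0.09 and 0.75 and IAA18 between 0.09 and 0.20, neither past the threshold. GH3.3 stayed between 0.25 and 0.80 and IAA29 between 0.20 and 1.17, with highest adjusted p-values of 0.0345 and 0.0319 in limma. For IAA18 and IAA30 the lowest adjusted p-values were 0.137 and 0.0811. For each of the 7 genes except IAA18, both ends of the range came from the number added before the logarithm, 1 or 64, and with 64 added WES1 (-1.73) and not GH3.17 (-1.61) had the lowest value. Without wildtype replicate 2, the array with the seed maturation signal, the log2 fold changes were -0.70 for GH3.1, 0.53 for GH3.3, 0.13 for IAA18 and 0.20 for IAA30, and the calls stood.

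**Figure D4:**
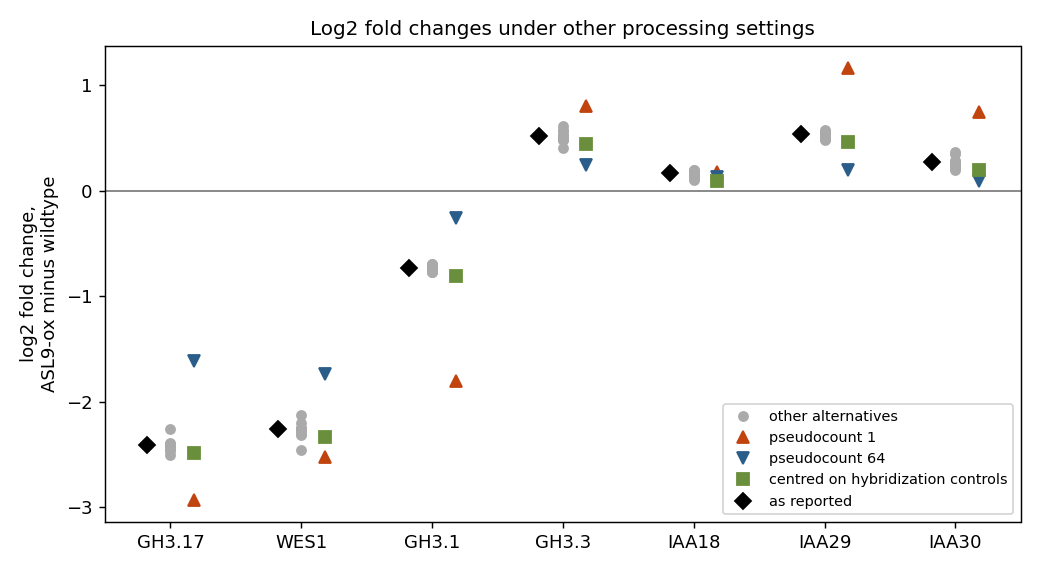
Log2 fold change (ASL9-ox minus wildtype, vertical axis) of each of the 7 genes as reported (black diamonds) and under other processing settings, with pseudocounts of 1 and 64 and centring on hybridization controls marked by colour. No value crosses 0, and GH3.1 spans the widest range, -1.81 to -0.26, between the pseudocounts of 1 and 64.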

How the data were processed

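RNA was measured on 6 Affymetrix ATH1 arrays, 3 ASL9-ox and 3 wildtype. The intensity values were deposited as linear MAS5 signals; per the submitters' processing notes the authors used MAS5 and GCOS, in versions not given in the sources used here. Probe sets were named through the platform annotation, which paired 13513 of 22810 with 1 gene, 503 with several and the remaining 8794 with none, and symbols were updated from the RefSeq table of assembly TAIR10.1, which held all 7 genes. No coordinates or sequences were used.

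Signals were transformed to log2(signal + 16), which understates changes at low signals. The 64 control probe sets and the dimmest 25% by mean log2 value were left out; all 7 genes passed this filter. The test was limma's (version 3.58.1, under R 4.3.3, with lmFit, then eBayes with an intensity trend, two-sided) over all 6 arrays. The procedure was also run on simulated data with independent noise and far fewer changed probe sets than were called here. That run therefore does not cover the conditions of these data. With 3 arrays per group their number limits the precision. Permutation tests used scipy 1.17.1, figures matplotlib 3.10.9.

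The 7 genes and the lists of other auxin genes were chosen with earlier results of these data known. The text names the 7 genes, from each list up to 4 called genes with the largest change or else the one with the smallest p, and 2 nearest genes per member; SHI and PUCHI were named after their values were seen, as were the dim Aux/IAA genes. The list symbol AUR3 matched an Aurora kinase gene, which was left out. Alternatives were quantile normalization, centring on the median or on 9 hybridization controls, pseudocounts of 1 and 64, no filter or one of 50%, eBayes without trend or robust, arrays weighted, blocking on the replicate number, leaving out each array, and a threshold of 0.01.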

Additional observations from a re-analysis of the deposited data

How the results depend on the processing

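The 7 genes gave 122 values under 18 alternatives, and all 122 kept their direction and their side of the threshold. The filters, the eBayes options, the replicate block and the threshold of 0.01 leave the log2 fold change as it is. Direction could therefore not change under them, and at 0.01 IAA18 and IAA30 could not have passed. GH3.1, GH3.3, IAA29 and IAA30 could not be tested once the dimmest 50% were removed. At a threshold of 0.01, 4569 probe sets passed in place of 7096, and centring on the hybridization controls gave 2320 higher calls in place of 4203. With the dimmest 50% left out, 4 other auxin genes were called in place of 7, because fewer were tested. The difference between groups in the log2 ratio of GH3.3 to GH3.17 was 3.73 with a pseudocount of 1 and 1.86 with one of 64; for GH3.3 to WES1 it was 1.98 with 64, and for GH3.3 to GH3.1 it was 2.61 with 1 and 0.51 with 64, the added number weighing most on low signals. A replicate block on the labels' numbers left 6174 calls, all 7 genes kept their calls, and GH3.3 and IAA29 had adjusted p-values of 0.0173 and 0.0153 in limma. Among the other auxin genes NGA1 lost its call with the block (0.0567) and without the filter (0.0542). Same-numbered arrays deviated from their group means with correlations of -0.12, -0.06 and 0.02, so no pairing was assumed. The plan to average a gene's probe sets gave no other value, since each listed gene had 1. Signals near 16 or below, as for GH3.1, IAA29 and IAA30, limit what can be said of their size.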
